A study of Rattus norvegicus with 40 samples.

Results

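The core circadian clock genes of rat skeletal muscle are described here across 2 muscles and 2 ages. There were 6 of them, out of 32545 genes in the count table, and they were picked by their Ensembl identifiers and not by any measured value. They were Bmal1 (ENSRNOG00000014448, also named Arntl), Clock (ENSRNOG00000002175), Per1 (ENSRNOG00000007387), Per2 (ENSRNOG00000020254), Nr1d1 (ENSRNOG00000009329) and Dbp (ENSRNOG00000021027). All 6 passed the filter on low counts in every comparison. RNA was sequenced from gastrocnemius, a hind-limb muscle of the calf, and from triceps, which lies in the fore limb, of 20 male rats of the outbred Wistar strain. There were 10 animals aged 20 months and 10 others aged 22 months, no treatment is given for either, and every animal gave 1 library of each muscle, so that 40 libraries fell into 4 groups of 10. The study chose these ages to follow sarcopenia, the loss of muscle mass and function with age, and its text states that this strain is prone to degeneration of hind-limb nerves. The labels give no hour of dissection, feeding state, or sequencing batch or date. Libraries held from 10983887 to 68580194 counts, the members had at least 50 counts in each library, and total counts of the muscles of an animal were not closely related (Pearson r 0.157 over 20 animals, permutation p = 0.505, Spearman rho -0.0120).

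The circadian clock is a feedback loop that runs in nearly every cell. CLOCK and BMAL1 pair up on E-box sequences and switch on Per1, Per2, Nr1d1 and Dbp, the PER proteins then hold the pair back, and REV-ERB alpha, the product of Nr1d1, represses Bmal1 through sites that it shares with the ROR receptors. Transcripts of the activator Bmal1 and of targets such as Per2 and Dbp therefore peak at different hours of the day, and in skeletal muscle the clock is known to time genes of glucose and lipid use.

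Stretches of promoter that hold letters of these control elements are shown first, since these elements are the kind of site through which the loop is known to act and Bmal1 and Per2 had the strongest relation among the members. Each is the 250 bases before a RefSeq start site in the GRCr8 build, in the direction of the gene, and capitals mark the motif letters found. All 6 members had a RefSeq window, 8 windows in all, and both strands of the 250 bases before and 50 bases after each start were searched for CACGTG, the E-box, CACGTT, an E-box form added after the sequences were seen, TTANGTAA, the D-box that DBP binds, and AGGTCA, a half-site of the element that REV-ERB and ROR receptors bind.
Bmal1: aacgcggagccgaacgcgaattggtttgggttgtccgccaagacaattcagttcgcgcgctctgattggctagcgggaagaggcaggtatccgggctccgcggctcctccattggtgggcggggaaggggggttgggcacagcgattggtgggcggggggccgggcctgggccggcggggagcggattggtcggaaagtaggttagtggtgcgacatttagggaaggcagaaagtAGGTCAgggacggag
Per2: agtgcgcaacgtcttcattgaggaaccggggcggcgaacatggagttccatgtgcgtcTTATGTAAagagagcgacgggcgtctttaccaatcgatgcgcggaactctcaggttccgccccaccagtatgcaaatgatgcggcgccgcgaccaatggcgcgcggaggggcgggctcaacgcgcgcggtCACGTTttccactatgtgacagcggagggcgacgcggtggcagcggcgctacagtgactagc
Nr1d1: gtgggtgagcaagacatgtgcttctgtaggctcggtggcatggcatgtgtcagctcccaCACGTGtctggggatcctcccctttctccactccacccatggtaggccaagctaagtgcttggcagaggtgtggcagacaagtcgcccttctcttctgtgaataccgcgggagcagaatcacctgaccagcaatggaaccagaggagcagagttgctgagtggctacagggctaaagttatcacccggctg
The Bmal1 stretch is chr1:176766078-176766327 on the plus strand and held AGGTCA 15 bases before the start, as did 16.2% of 33469 windows of this length at some position. The Per2 stretch is chr9:99496994-99497243 on the minus strand and held a D-box 192 bases and CACGTT 62 bases before the start, motifs found in 2.24% and 4.83% of windows. The Nr1d1 stretch is chr10:84229455-84229704 on the minus strand, before the second of 2 annotated starts, and held CACGTG 191 bases before it, as did 6.42% of windows. The first Nr1d1 window held CACGTT on the other strand 174 bases before its start. Clock, with 2 windows, Per1 and Dbp held none of these letters in their windows. Sequence outside the windows was not searched, so this does not show that these genes lack the elements. A match describes letters only, and these motifs did not overlap one another.

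The members differed widely in how much they varied between animals of the same muscle and age. Levels are CPM, a share of the library's counts, with library sizes set by TMM (a trimmed mean of log ratios between libraries), and since no gene length was used they are compared between samples of a gene and not between genes. Bmal1, the activator, had a lowest, median and highest level of 5.52, 22.8 and 33.7 CPM in gastrocnemius at 20 months and of 6.95, 19.3 and 40.9 CPM at 22 months. In triceps these levels of Bmal1 were 4.88, 24.0 and 39.0 CPM at 20 months and 6.48, 20.6 and 42.0 CPM at 22 months. Thus the highest animal held between 5.89 and 8.0 times the Bmal1 of the lowest in a group, and the 4 groups overlapped almost fully. Clock, the partner of Bmal1, had a much narrower spread. Its levels ran from 41.5 to 75.8 CPM (median 57.3) in gastrocnemius and from 36.0 to 82.8 CPM (median 62.3) in triceps at 20 months. At 22 months Clock ran from 48.2 to 79.1 CPM (median 61.2) in gastrocnemius and from 45.4 to 83.7 CPM (median 63.4) in triceps. The ratio of highest to lowest Clock was between 1.64 and 2.3 in the 4 groups.

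Among the targets of the pair, Per1, which encodes a repressor, ran from 17.8 to 104 CPM (median 37.0) in gastrocnemius and from 24.2 to 126 CPM (median 57.1) in triceps at 20 months. At 22 months Per1 ran from 24.1 to 48.5 CPM (median 36.2) in gastrocnemius and from 28.3 to 75.9 CPM (median 56.6) in triceps. The ranges of the older group lay inside those of the younger one in both muscles. Per2, a repressor of the same family, ran from 13.2 to 58.1 CPM (median 22.6) in gastrocnemius and from 11.5 to 60.1 CPM (median 23.2) in triceps at 20 months. At 22 months the range of Per2 was 15.9 to 54.6 CPM (median 22.5) in gastrocnemius and 14.7 to 78.5 CPM (median 29.1) in triceps. Dbp, which encodes a PAR-family bZIP transcription factor and is an output gene of the clock, had the largest ratio of highest to lowest level among the members in 3 of the 4 groups. Dbp ran from 39.5 to 256 CPM (median 109.9) in gastrocnemius and from 35.8 to 338 CPM (median 125) in triceps at 20 months. At 22 months Dbp ran from 39.1 to 272 CPM (median 108) in gastrocnemius and from 64.7 to 226 CPM (median 134) in triceps. Nr1d1 varied less at the younger age, from 111 to 230.2 CPM (median 173) in gastrocnemius and from 133 to 322 CPM (median 237) in triceps. At 22 months Nr1d1 ran from 70.8 to 249 CPM (median 152) in gastrocnemius and from 99.5 to 389 CPM (median 267) in triceps.

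**Figure D1:**
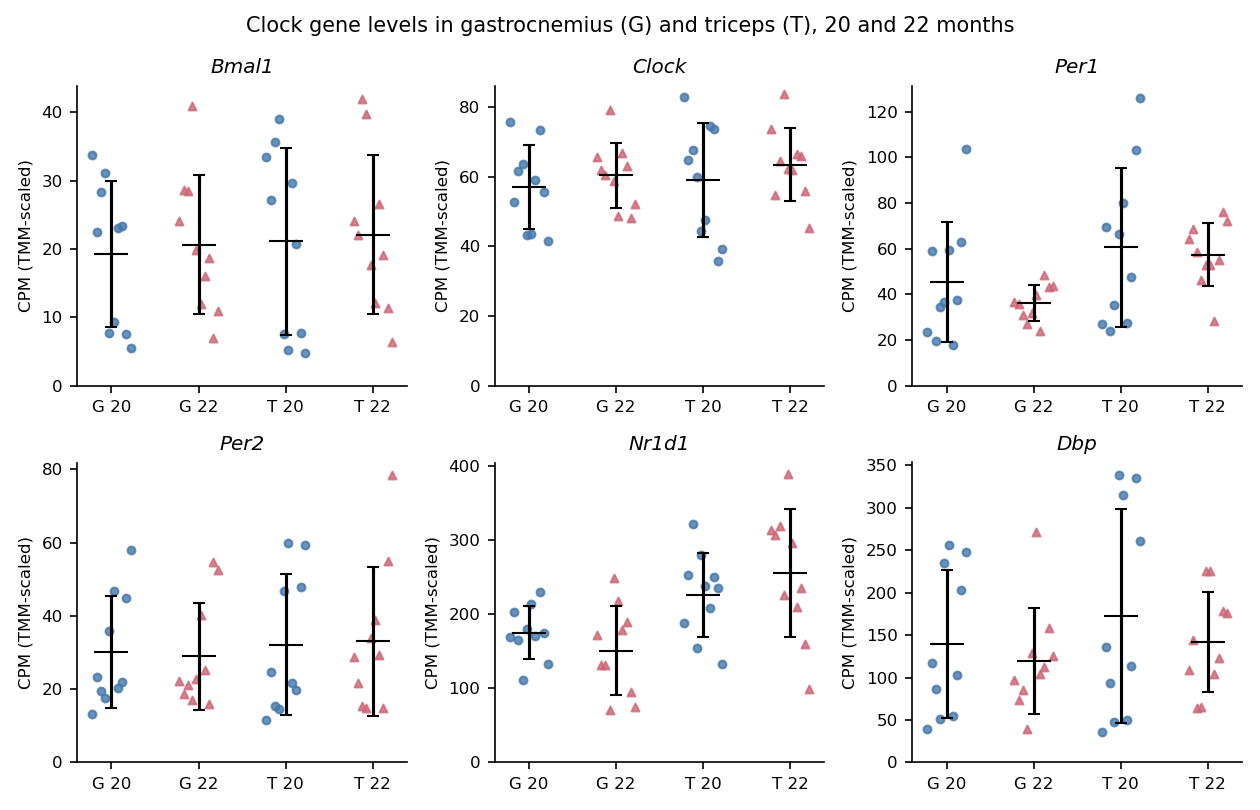
Levels of each clock gene in CPM (y axis, linear, from 0) in gastrocnemius (G) and triceps (T) at 20 months (blue circles) and 22 months (red triangles), 1 point per animal, with the group mean as a bar and the SD as whiskers (n = 10 per group). The groups overlap for every gene, and Bmal1 at 20 months parts into 4 low and 6 high animals in both muscles.

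The coefficient of variation (CV, the SD over the mean within a group) was set beside that of all genes tested. Bmal1 had a CV of 49.2% to 64.4%, Per2 of 50.3% to 61.5% and Dbp of 41.7% to 72.9%, where the median gene had 17% to 18.6%. For these 3 genes each CV was at or above the 91.4th percentile of all genes in its group. Clock, with 15.4% to 27.6%, lay between the 39.2nd and 75.6th percentiles. Per1 stood at 58.1% in gastrocnemius and 57.4% in triceps at 20 months but at 21.5% and 24.3% at 22 months. Of the 24 combinations of member and group, 22 were above the median CV and 15 were at or above the 90th percentile of all genes. This is a description, with no test.

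At 20 months the animals parted into sets. In gastrocnemius, Bmal1 lay at or below 9.33 CPM in 4 animals, replicates 5, 6, 9 and 10, and at or above 22.5 CPM in the other 6, a gap of 48.7% of the log2 range. In triceps the same 4 animals lay at or below 7.74 CPM and the other 6 at or above 20.8 CPM. The widest gap in Per2 divided the same animals the other way round in both muscles, with the 4 at or above 35.8 CPM in gastrocnemius and 46.9 CPM in triceps and the 6 at or below 23.4 and 24.8 CPM. Dbp did the same, with the 4 at or above 203.6 CPM in gastrocnemius and 261 CPM in triceps and the 6 at or below 117 and 136 CPM. At 22 months the widest gap in Bmal1 set off a single animal, replicate 9 in gastrocnemius and replicate 10 in triceps, with gaps of 25.4% and 30.3% of the log2 range. In Per2 of gastrocnemius at 22 months, 3 animals lay at or above 40.3 CPM and 7 at or below 25.2 CPM, a gap of 38.2% of the log2 range, against 28.6% at 20 months. In Dbp of triceps at 22 months, 2 animals lay at or below 64.8 CPM and 8 at or above 104.5 CPM, again with a gap of 38.2%, against 29.1% at 20 months. At 20 months the widest gaps of Bmal1, Per2 and Dbp set off the same 4 animals in both muscles. These widest gaps shared no such common set at 22 months. Even so, replicates 6, 9 and 10 of 22 months were the 3 lowest in Bmal1 and the 3 highest in Per2 in both muscles. Their Bmal1 lay at or below 11.96 CPM in gastrocnemius and 12.06 CPM in triceps. The other 7 animals lay at or above 16.13 and 17.6 CPM. Dbp did not part them, with replicate 10 at 124.9 CPM in gastrocnemius, below replicate 5 at 128.4 CPM. Sets formed in this way come from the measured levels, so they are described and were not compared by a test. Replicate numbers 6, 9 and 10 belonged to low-Bmal1 animals at both ages, although the animals differ. Whether levels follow the replicate number was not tested.

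None of the members passed the test for age. The comparison of 22 with 20 months asks what changes as these rats enter the sarcopenic ages, and it was fitted in each muscle with the edgeR quasi-likelihood test over all genes, called at a Benjamini-Hochberg adjusted p under 0.01. In gastrocnemius 0 of 6 members were called, beside 0 of 12659 genes (0.0%), and in triceps 0 of 6, beside 0 of 12345 genes (0.0%). Before adjustment, 1308 genes in gastrocnemius and 1084 in triceps had a p under 0.05, and no member was among them. DESeq2 called 1 gene in gastrocnemius and 0 in triceps, and neither count held a member. The log2 fold change of Bmal1 was 0.11 ± 0.34 (SE) in gastrocnemius and 0.05 ± 0.38 in triceps. That of Clock was 0.09 ± 0.11 and 0.11 ± 0.14, and that of Per2 was -0.04 ± 0.29 and 0.05 ± 0.34. For Per1 it was -0.32 ± 0.26 in gastrocnemius and -0.07 ± 0.26 in triceps, and for Dbp -0.22 ± 0.35 and -0.28 ± 0.38. Single animals moved these values, and without replicate 10 of the 20-month animals Per1 in gastrocnemius came to -0.096. Nr1d1 had -0.21 ± 0.20 in gastrocnemius and 0.18 ± 0.19 in triceps. Adjusted p-values of the members (edgeR) ran from 0.647 to 0.966 in gastrocnemius and from 0.823 to 0.979 in triceps. The SE of Bmal1, Per1, Per2 and Dbp was at or above the 91.8th percentile of all genes in both muscles, where the median SE was 0.12 in gastrocnemius and 0.11 in triceps on the log2 scale. With this spread between animals, age differences of the size of these errors were not detectable.

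Per1 and Nr1d1 were lower in gastrocnemius than in triceps. The muscles were compared within animals over both ages, with the animal as a block, since both muscles of an animal carry its number. Per1 was lower in gastrocnemius in 20 of 20 animals and Nr1d1 in 20 of 20. The log2 difference, gastrocnemius minus triceps, was -0.53 ± 0.06 (SE) for Per1 (edgeR adjusted p = 6.38e-07) and -0.57 ± 0.09 for Nr1d1 (edgeR adjusted p = 4.09e-05). These 2 of 6 members were called, beside 4223 of 12980 genes (32.5%), of which genes lower in gastrocnemius made up 16.8% of those tested. In whole muscle, fewer cells of a type and less RNA per cell cannot be told apart. Dbp was lower in gastrocnemius in 15 of 20 animals, with a log2 difference of -0.23 ± 0.08, and did not pass (edgeR adjusted p = 0.0239). Bmal1 differed by -0.05 ± 0.09, Clock by -0.05 ± 0.05 and Per2 by -0.07 ± 0.06, and these directions turned to 0.10, 0.11 and 0.09 when libraries were scaled by their totals without TMM, a scaling that moved the median of all genes to 0.16. Under that scaling Per1 stayed at -0.37 and Nr1d1 at -0.41, with edgeR adjusted p-values of 5.59e-05 and 0.000267, while Dbp went to -0.074 (edgeR adjusted p = 0.429).

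**Figure D2:**
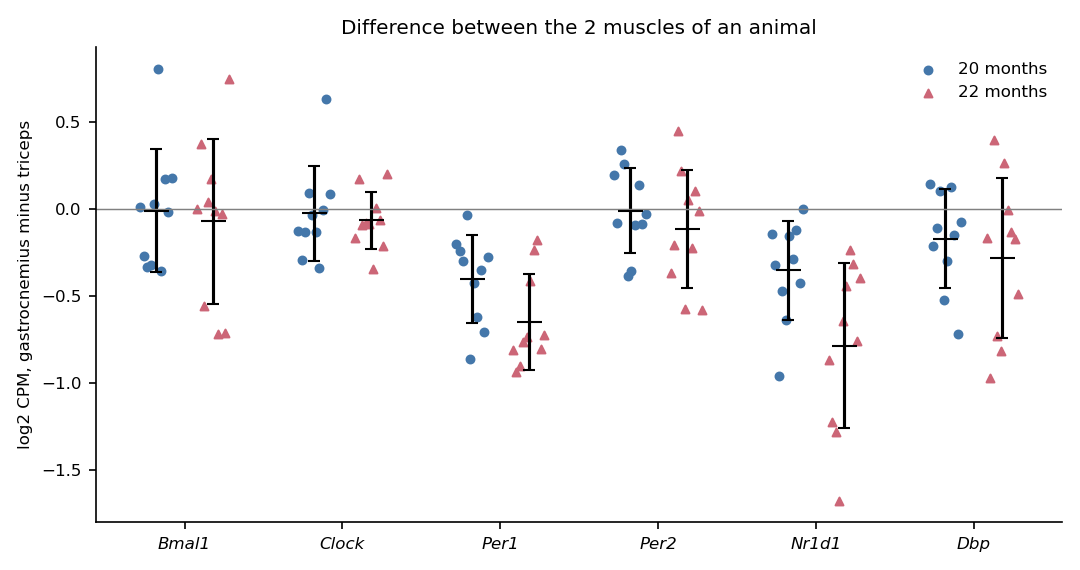
Difference in log2 CPM between gastrocnemius and triceps of each animal (y axis) for the 6 genes, at 20 months (blue circles) and 22 months (red triangles), with the mean as a bar and the SD as whiskers (n = 10 animals per age). All points of Per1 and Nr1d1 lie below 0, the line of equal levels, while Bmal1, Clock and Per2 scatter around it.

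Within each age, whether Per1 and Nr1d1 were called depended in part on the pairing. The per-animal difference of Per1 in log2 CPM, gastrocnemius minus triceps, averaged -0.40 ± 0.25 (SD, n = 10) in the younger animals and -0.65 ± 0.27 (SD, n = 10) in the older ones. Nr1d1 differed by -0.35 ± 0.29 at 20 months and by -0.78 ± 0.48 at 22 months (SD, n = 10 each). At 20 months 0 of 6 members were called without the block, beside 467 of 12426 genes (3.76%). With the animal as a block Per1 was called there, with a log2 difference of -0.39 ± 0.08 (edgeR adjusted p = 0.00741, beside 4.07% of all genes called), and Nr1d1 had an edgeR adjusted p of 0.0255. At 22 months 1 of 6 members was called without the block, beside 2552 of 12565 genes (20.3%, of which 9.82% of those tested were lower in gastrocnemius). It was Per1, at -0.66 ± 0.15 (edgeR adjusted p = 0.00172). Nr1d1 at -0.76 ± 0.24 missed the threshold (edgeR adjusted p = 0.0167), passed it with the block at -0.77 ± 0.13 (edgeR adjusted p = 0.000621, beside 21.1% of all genes called), and also passed without the block when replicate 10 of the 22-month animals was left out (edgeR adjusted p = 0.00731). Per1 at 22 months was not called when TMM was left out (edgeR adjusted p = 0.0281).

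Whether the difference between muscles itself changed with age was tested as an interaction. No member was called, beside 0 of 12980 genes (0.0%), with 389 genes at an unadjusted p under 0.05 and 0 called by DESeq2. The interaction was largest for Nr1d1, at -0.39 ± 0.29 on the log2 scale (edgeR adjusted p = 0.999), or -0.43 ± 0.17 with the animal as a block (edgeR p = 0.0179, adjusted p = 0.932). For Per1 it was -0.25 ± 0.38 without the block (edgeR adjusted p = 0.999). Blocking on the animal gave -0.25 ± 0.12 for Per1 (edgeR adjusted p = 0.932). The fit without the block left the differences between animals in the error.

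Nr1d1 moved with the makeup of the gastrocnemius libraries. The 50 most abundant genes took 42.3% ± 3.41 of counts in gastrocnemius at 20 months and 39.1% ± 4.17 at 22 months, against 44.9% ± 2.98 and 43.9% ± 1.37 in triceps (SD, n = 10 each). Over 20 animals, centred on age, Nr1d1 in gastrocnemius followed that share with Pearson r 0.724 (permutation p = 0.0009, adjusted p over all genes 0.00307) and Spearman rho 0.716 (permutation p = 0.00198), and r was 0.819 without the 2 farthest animals. Of all genes, 23.5% passed in the same way. In triceps r was 0.126 (permutation p = 0.556). Among the 24 relations of a member with this share or with total counts, no other reached an unadjusted p of 0.05. The part of library makeup in the lower gastrocnemius level of Nr1d1 was not tested.

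Both muscles of an animal agreed closely in most of the clock genes. For each gene the level in gastrocnemius was correlated with that in triceps over the 20 animals, in log2 CPM centred on the mean of each age. Per2 had a Pearson r of 0.951 (95% confidence interval 0.875 to 0.981), Dbp of 0.926 (0.814 to 0.971), Per1 of 0.919 (0.798 to 0.969) and Bmal1 of 0.918 (0.796 to 0.968). The permutation p of each was 1e-05, the smallest that 100000 resamples can give. Of 12980 genes ranked by r, Per2 was number 5, Dbp 10, Per1 14 and Bmal1 16. These 4 of 6 members were called at an adjusted p under 0.01 over all genes, beside 85 genes (0.655%), and the median r of all genes was 0.181. The adjusted p was 1.07e-06 for Per2, 1.71e-05 for Dbp and 2.41e-05 for both Per1 and Bmal1.

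Clock had r 0.760 (0.468 to 0.903, permutation p = 0.00042, adjusted p 0.0180) and was not called, but it passed when replicate 9 of the 20-month animals was left out (r 0.863, adjusted p 0.00139), when values were not centred on age (r 0.770, adjusted p 0.00951) and by Spearman rho (0.813, adjusted p 0.00641). Nr1d1 had r 0.688 (0.339 to 0.870, permutation p = 0.0019, adjusted p 0.0717). Spearman rho was 0.952 for Per2, 0.908 for Dbp, 0.886 for Bmal1, 0.884 for Per1, 0.813 for Clock and 0.492 for Nr1d1, with a permutation p of 0.0454 for Nr1d1 and of at most 0.00016 for the others. Without the 2 animals farthest from the median, r was 0.95 for Per2, 0.924 for Bmal1, 0.912 for Dbp, 0.890 for Per1, 0.667 for Clock and 0.630 for Nr1d1. Gastrocnemius and triceps of 1 animal lay a median of 0.22 log2 units apart in Bmal1, against a range over animals of 2.87 in gastrocnemius and 3.08 in triceps. For Per2 it was 0.21, against ranges of 2.13 and 2.77, and for Dbp 0.19, against 2.79 and 3.24.

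**Figure D3:**
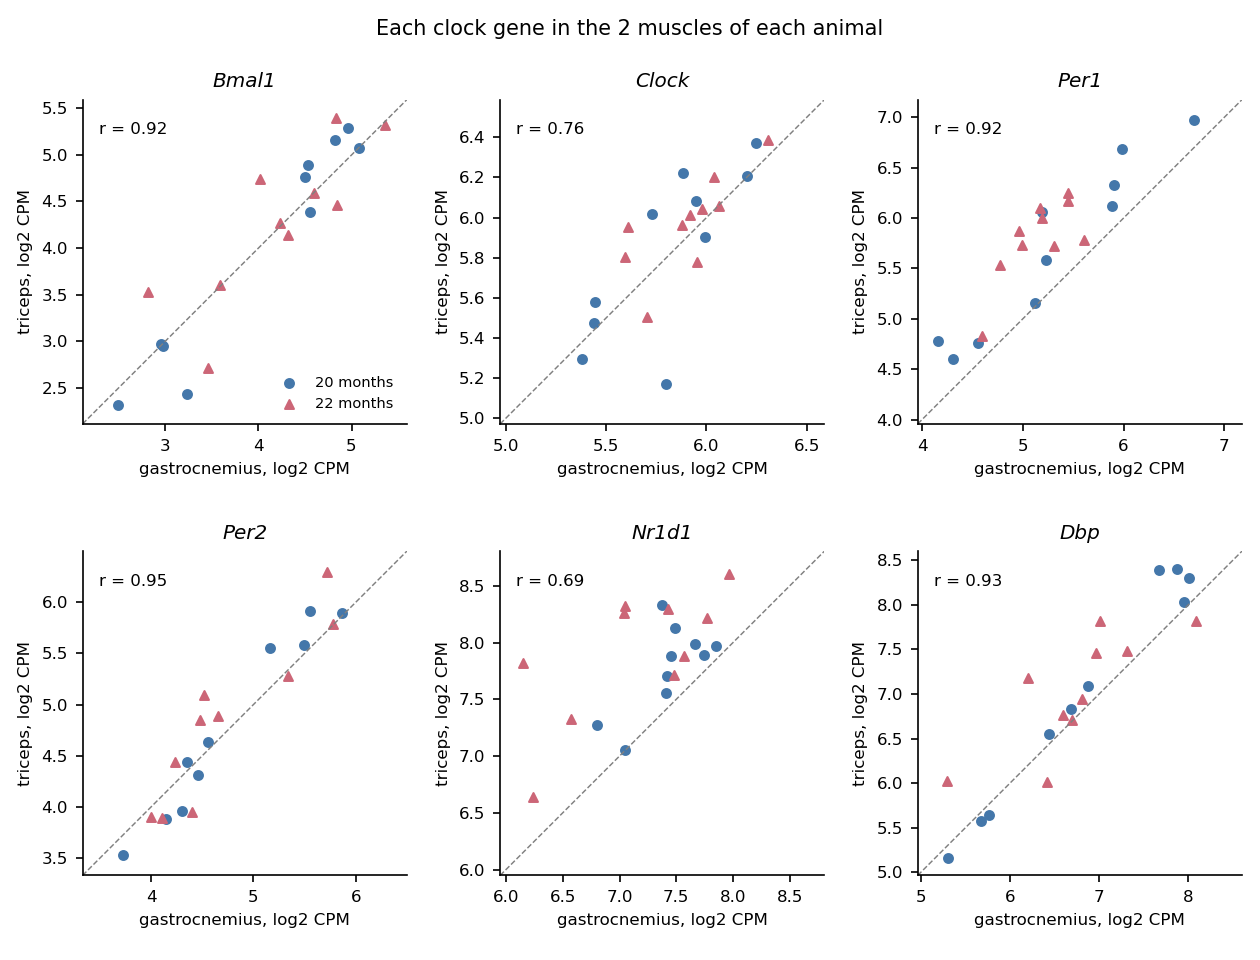
Each clock gene in triceps (y axis) against gastrocnemius (x axis) of the same animal in log2 CPM, at 20 months (blue circles) and 22 months (red triangles), with the line of equal levels dashed and the age-centred Pearson r over 20 animals printed. Bmal1, Per2 and Dbp lie along the line over a range of more than 2 log2 units, and Per1 and Nr1d1 lie above it.

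Since the 20-month animals parted into sets, agreement was also taken within sets. At 22 months alone (n = 10 animals) r between muscles was 0.919 for Per2 (permutation p = 0.0001), 0.826 for Bmal1 (permutation p = 0.00335), 0.787 for Dbp (permutation p = 0.0047), 0.752 for Clock (permutation p = 0.0131), 0.744 for Per1 (permutation p = 0.00978) and 0.694 for Nr1d1 (permutation p = 0.0216). None of these 22-month values passed the adjustment over all genes. At 20 months alone (n = 10 animals), a group that spans both sets, r was 0.990 for Dbp (permutation p = 5e-05) and 0.979 for Per2 (permutation p = 2e-05). It was 0.97 for Bmal1 (permutation p = 0.00033) and 0.955 for Per1 (permutation p = 4e-05). Clock had 0.769 (permutation p = 0.0126) and Nr1d1 0.692 (permutation p = 0.0266). In sets formed from the measured levels, r is given here as a description without a p. Calls made in such sets are counted at the end and support nothing. Among the 6 animals of 20 months with higher Bmal1, r between muscles was 0.999 for Dbp, 0.957 for Per1, 0.921 for Per2, 0.735 for Bmal1, 0.641 for Nr1d1 and 0.604 for Clock. The widest gap of Per2 in gastrocnemius over all 20 animals set 7 animals, 4 of 20 months and 3 of 22 months, above the other 13. Among the 7 animals r turned to -0.0173 for Bmal1 and -0.604 for Clock, while it was 0.914 for Nr1d1, 0.870 for Per1, 0.681 for Per2 and 0.527 for Dbp. Among the 13 animals r was positive for all 6 genes, from 0.477 for Nr1d1 to 0.861 for Per1, with 0.672 for Bmal1.

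Within a muscle the members fell on opposite sides. Over the 20 animals Bmal1 and Clock, the activators, ran together, with r 0.846 in gastrocnemius (adjusted p 0.00743 over all genes) and 0.839 in triceps (adjusted p 0.00429). Per1, Per2 and Dbp also ran together, with r between 0.645 and 0.828 in all 6 of their pairs over both muscles. Each activator ran against each of these targets in every pair, 12 of 12, with r from -0.929 to -0.613 in gastrocnemius and from -0.920 to -0.756 in triceps. Bmal1 and Per2 had the strongest relation, -0.929 in gastrocnemius and -0.920 in triceps (permutation p = 1e-05, adjusted p 0.000127 and 0.000109, Spearman rho -0.886 and -0.853). Bmal1 and Dbp followed with -0.877 and -0.871 (permutation p = 2e-05 and 3e-05, adjusted p 0.00181 and 0.00131). Of the 15 pairs in each muscle, 3 were called in gastrocnemius and 4 in triceps, the fourth being Per2 with Dbp (r 0.828, adjusted p 0.00790). Each adjusted p is over the pairings of the member listed first, in the order given at the start, so a call can depend on that order. With Clock as the first, 0 of 12979 genes were called in gastrocnemius, so Bmal1 with Clock was called there only from the side of Bmal1. Clock with Dbp, at r -0.847, was not called there (Pearson adjusted p 0.0335). Of all pairings of Bmal1, Clock, Per1, Per2 or Nr1d1 with another gene, 0.0216% were called in gastrocnemius and 0.0786% in triceps. The 7 calls became 3 without the 2 animals farthest from the median, 4 on library totals without TMM and 0 in either age alone, and the negative sign of all 12 relations was kept in each of these. A shared library enters both values of such a pair.

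**Figure D4:**
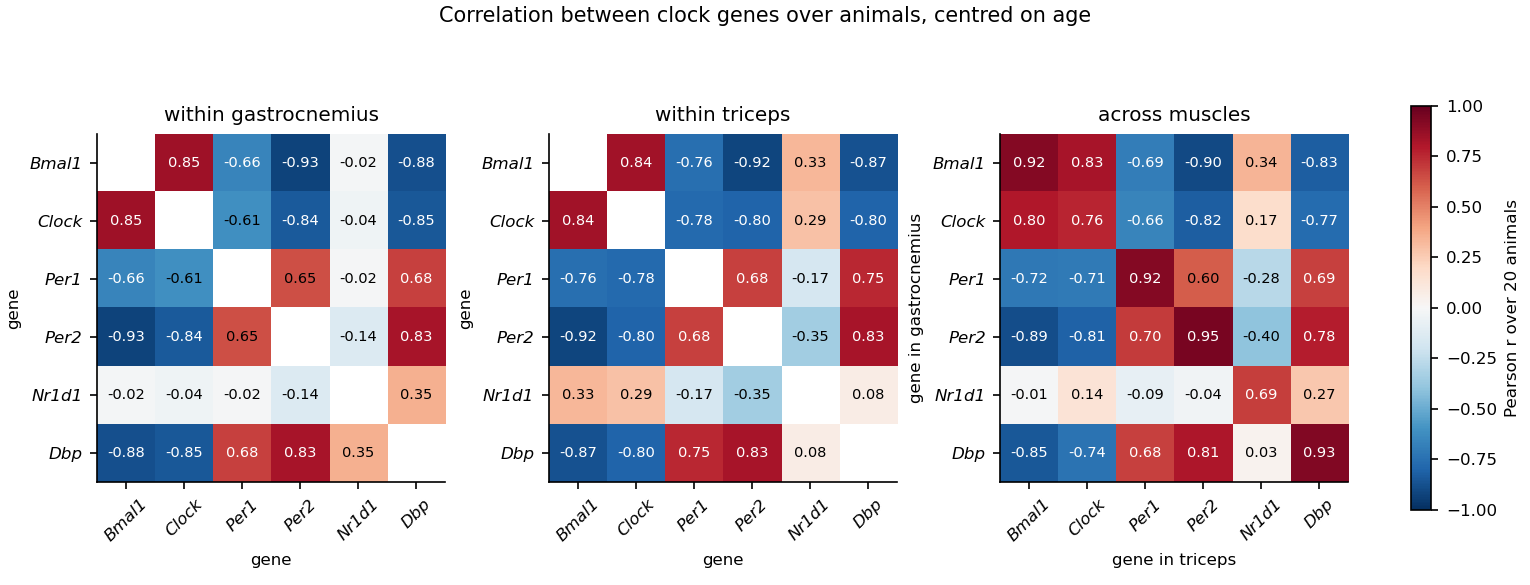
Pearson r between clock genes over 20 animals, in log2 CPM centred on age, within gastrocnemius (left), within triceps (middle) and between a gene in gastrocnemius (rows) and a gene in triceps (columns, right), colored from -1 (blue) to 1 (red). Bmal1 and Clock form 1 block and Per1, Per2 and Dbp another, with negative r between the blocks in all 3 panels, and the row and column of Nr1d1 are pale apart from its own agreement of 0.69.

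The opposition was also present when the genes were taken from different libraries. With Bmal1 or Clock in 1 muscle and Per1, Per2 or Dbp in the other, all 12 relations were negative, from -0.902 to -0.661. Bmal1 in gastrocnemius against Per2 in triceps gave -0.902 (permutation p = 1e-05, adjusted p 0.000574), and Per2 in gastrocnemius against Bmal1 in triceps gave -0.890 (permutation p = 1e-05, adjusted p 0.00110). Within ages, Bmal1 and Per2 had r -0.882 in gastrocnemius (permutation p = 0.00057) and -0.878 in triceps (permutation p = 0.00093) at 22 months (n = 10). Among the 6 animals of 20 months with higher Bmal1, it was -0.900 in gastrocnemius and -0.612 in triceps, again as a description.

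**Figure D5:**
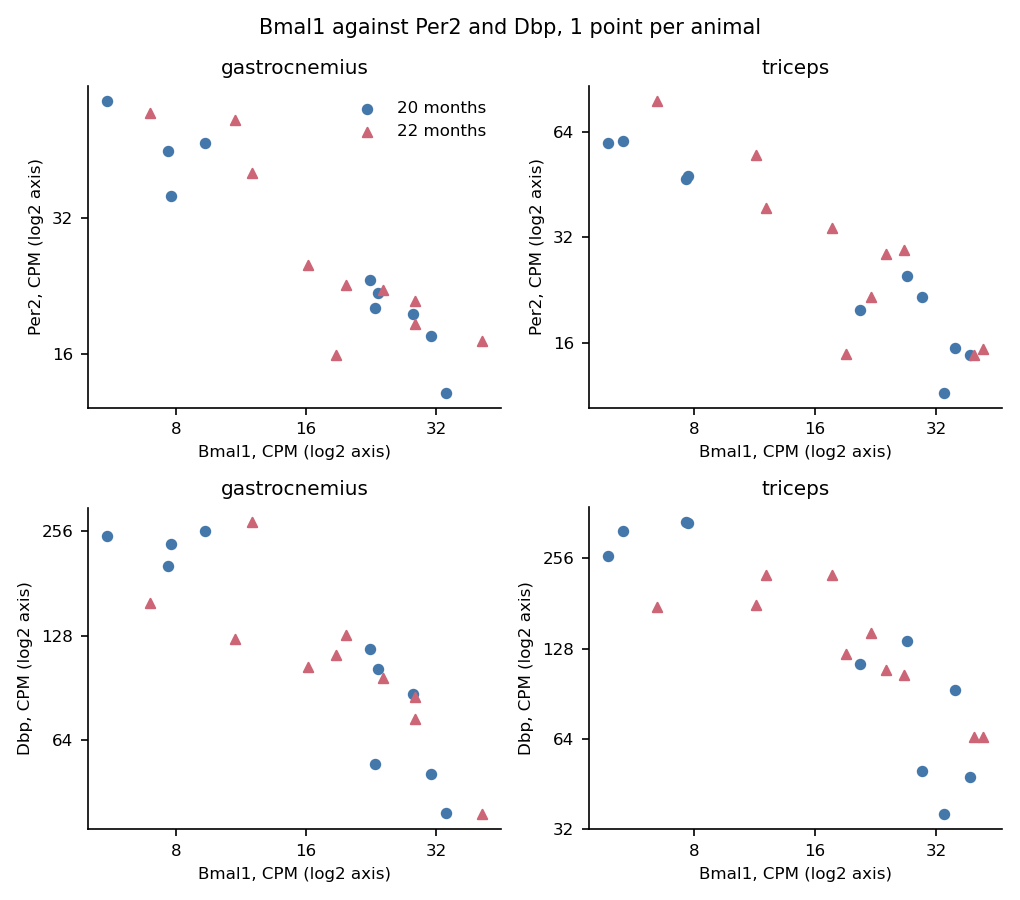
Per2 (top) and Dbp (bottom) against Bmal1 in gastrocnemius (left) and triceps (right), all in CPM on log2 axes, 1 point per animal at 20 months (blue circles) and 22 months (red triangles). Per2 and Dbp are lower where Bmal1 is higher, and the 4 low-Bmal1 animals of 20 months lie at the upper left of each panel. In the Per2 panels animals of 22 months lie there too. Replicate 9 had Bmal1 at 6.95 and Per2 at 54.6 CPM in gastrocnemius, and replicate 10 had 6.48 and 78.5 CPM in triceps.

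Nr1d1 stood apart from the other members. Its r with them lay between -0.140 and 0.353 in gastrocnemius and between -0.347 and 0.334 in triceps, 0 of its 10 pairs were called, and the smallest permutation p was 0.095, for Dbp in gastrocnemius. Whether these coefficients differ from those of Per1, Per2 and Dbp was not tested.

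The ratio of Dbp to Bmal1 counts, chosen after the values were seen and given without a test, put both sides in 1 number. It ran from 1.17 to 44.9 in gastrocnemius at 20 months and from 0.955 to 22.8 at 22 months. In triceps it ran from 1.07 to 59.3 at 20 months and from 1.54 to 27.1 at 22 months. The muscles of an animal differed by a median of 0.52 log2 units in this ratio and by at most 1.35, while animals spanned 5.55 log2 units in gastrocnemius and 5.79 in triceps.

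Genes outside the members with the most similar pattern were sought over all 40 libraries, by Pearson r of log2 CPM centred on the 4 group means, and are given by identifier because the table pairs none with a symbol. ENSRNOG00000013408 was most alike to both Bmal1 (r 0.909) and Clock (r 0.773). ENSRNOG00000007478 was most alike to Per2 (r 0.916), ENSRNOG00000042717 to Dbp (r 0.956), ENSRNOG00000006663 to Per1 (r 0.830) and ENSRNOG00000018911 to Nr1d1 (r 0.757). Ranked by the size of r among 12979 other genes, Per2 was number 1 for Bmal1 (r -0.923), and Bmal1 was number 1 for Per2 and for Clock. The libraries come in pairs from an animal, so these coefficients are descriptions.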

How the data were processed

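Raw read counts per gene in 40 libraries were deposited by the authors as 1 table without normalization. Per the submitters' processing notes, CASAVA 1.8, STAR 2.3.0e, HTSeq and the Rnor_6.0 build were used, with no roles stated. The study's methods describe kallisto for its own rat values, so those may differ. The rat reads were unstranded, so reads from overlapping antisense genes cannot be told apart. Polyadenylated RNA was prepared with a miRNeasy kit and a TruSeq kit.

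The analysis ran in R 4.3.3, with edgeR 4.0.16 for counts. Genes at 1 CPM or more in 10 libraries or more of a comparison were kept, scaled by TMM and tested with the two-sided quasi-likelihood F-test, with Benjamini-Hochberg adjustment over all genes tested and calls at an adjusted p under 0.01. The SE of a log2 fold change was its size over the root of F. Each age or muscle comparison was fitted on its own 20 libraries, and the interaction and the comparison within animals on all 40. Correlations used log2 CPM with a prior count of 2, centred on age, with two-sided tests of 100000 permutations of animals within age and a Pearson p adjusted over all genes. Alternatives were DESeq2 1.42.0, limma-voom (limma 3.58.1), library totals without TMM, no filter, a threshold of 0.05, a prior count of 0.5, uncentred values, leaving out each animal and the block. Scripts were tested on simulated data.

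Both muscles of an animal share its number in the labels, which pairs them. Taken as deviations from the group means, they had a median r of 0.158, 12 of 20 pairs were over 0.1, and the median between different animals was -0.0324. Age groups share only a replicate number. Libraries of a group differed by a chi-square of at least 9.37 per gene, above sampling noise. Where animals are separate, p-values measure the spread between animals.

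The names of the 6 genes came with their identifiers, as the count table holds no symbols. Other clock genes and cell type markers listed by symbol were not analysed here, as no table at hand pairs symbols with identifiers. The members, lists and tests were chosen with earlier results of these data known. Genes named were the members and, for each, the gene with the highest r to it.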

Additional observations from a re-analysis of the deposited data

Results flagged for a closer look

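In 36 sets of 10 values, 4 held an animal whose gap to the next one took a large enough share of the range to be singled out by Dixon's criterion at 95%, and chance alone gives about 1 set in 20. Per1 in gastrocnemius at 20 months was 103.8 CPM in replicate 10, against 63.2 CPM in the next animal. That animal was also the highest in triceps, at 126 CPM. Dbp in gastrocnemius at 22 months was 271.5 CPM in replicate 6, against 159 CPM in the next animal, while in triceps that animal, at 225.9 CPM, was level with replicate 5, at 225.8 CPM. The log2 difference of gastrocnemius from triceps at 20 months was 0.804 for Bmal1 in replicate 6, against 0.18 in the next animal. For Clock it was 0.629 in replicate 9, against 0.09 in the next animal.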

How the results depend on the processing

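Called members in the age comparisons and the interaction stayed at 0 under every alternative, and over both ages Per1 and Nr1d1 were both called under every alternative with the block, also when any single animal was left out. With the animal as a block, 1 member was called at 20 months (4.07% of all genes) and 2 at 22 months (21.1%), and the fit without the block over both ages (29.3%) called 1, Nr1d1 (Per1 adjusted p 0.0215), since the differences between animals then stayed in the error. At 22 months 2 members were called by DESeq2 (25.4% of all genes) or at a threshold of 0.05 (33.9%) and 0 on library totals without TMM, where calls over all genes rose to 27.6% from 20.3%, and leaving out 1 animal gave 1 to 2. No call was changed by the block on the replicate number for age, which pairs different animals. Under it the SE of every member fell in both muscles. For Bmal1 the SE went from 0.34 to 0.17 in gastrocnemius and from 0.38 to 0.16 in triceps. For Per2 it went from 0.29 to 0.12 and from 0.34 to 0.15. The replicate block gave 0.085 for Per1 and 0.012 for Dbp in triceps, and the animal block gave -0.054 for Bmal1 and -0.11 for Dbp in the interaction.

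On library totals without TMM, the share of called genes that were higher in gastrocnemius went from 48.4% to 79.7% over both ages, from 63.6% to 76.0% at 20 months and from 51.6% to 81.7% at 22 months, and the median of all genes moved by 0.15, 0.10 and 0.19 on the log2 scale. Dbp over both ages went from -0.23 to -0.074. Uncalled members that turned sign were then Bmal1 (0.10), Clock (0.11) and Per2 (0.086) over both ages, Clock (0.045) and Per2 (0.026) at 20 months, Bmal1 (0.11), Clock (0.13) and Per2 (0.024) at 22 months, Per2 for age in gastrocnemius (0.11) and Clock in the interaction (0.088). With limma-voom these were Per1 for age in triceps (0.11), Per2 between muscles at 20 months (0.0073) and Dbp in the interaction (-0.059). DESeq2 called 878 genes at 20 months, against 467.

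Leaving out each animal moved the age difference of Bmal1 from -0.065 to 0.23 and of Per2 from -0.19 to 0.12 in gastrocnemius, and in triceps of Bmal1 from -0.10 to 0.20, of Per1 from -0.16 to 0.11 and of Per2 from -0.18 to 0.21. With the sign kept, Per1 in gastrocnemius ran from -0.41 to -0.096, the latter without replicate 10 of 20 months, Nr1d1 from -0.32 to -0.13 in gastrocnemius and from 0.096 to 0.28 in triceps, Clock from 0.037 to 0.14 and from 0.043 to 0.17, and Dbp from -0.44 (without replicate 6 of 22 months) to -0.086 (without replicate 6 of 20 months) in gastrocnemius and from -0.40 to -0.12 (without replicate 5 of 20 months) in triceps. It moved Clock between muscles at 20 months from -0.10 to 0.0073, Bmal1 at 22 months from -0.15 to 0.018, and in the interaction Bmal1 from -0.013 to 0.13, Clock from -0.052 to 0.048, Per2 from -0.16 to 0.0021 and Dbp from -0.052 to 0.15.

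Agreement between muscles was called for 4 members, for 4 to 5 with each animal left out, for 5 with Clock when not centred on age or by Spearman rho, and for 0 in the 22-month animals alone. In the 20-month animals alone Per1 was not called (Pearson adjusted p 0.0150). Splits added after the values were seen called 0 in the 13 animals below and 0 in the 7 above the widest gap of gastrocnemius Per2, and 1, Dbp, in the 6 animals of 20 months with higher Bmal1, where fewer animals were tested; a call in a set chosen on measured levels supports nothing. In those 7 animals r was -0.0173 for Bmal1 and -0.604 for Clock. Pairs called numbered 7 at first, 13 at a threshold of 0.05, 4 on library totals, 4 by Spearman rho, 3 without the 2 farthest animals, and 0 in either age alone or in any of these splits. All 12 activator and target relations kept their sign in the settings tried except in the 7 animals, where 3 turned, among them Bmal1 with Dbp (0.258 in gastrocnemius, 0.726 in triceps), as did Per2 with Dbp (-0.422 and -0.788). Bmal1 with Clock in triceps was -0.314 in the 6 animals. Of the 24 CV values, 21 were above the median on library totals, against 22.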
